A study of Mus musculus with 6 samples.

Results

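Liver RNA of mice that ate parsley and drank dextran sodium sulphate, a polymer used to cause colitis (DSSPAR), was compared with liver RNA of control mice (CON), 2 of the 6 arrays of a study of colon and liver in male C57BL/6J mice, 7 weeks old. CON mice had a basal diet and plain water. DSSPAR mice had 2% parsley in that diet from start to end and, after 7 days of plain water, were given drinking water with 1.5% (w/v) of the polymer for 9 days. A group given the polymer on the basal diet without parsley (DSS, 10 days by its treatment protocol) is quoted beside the comparison, since DSSPAR differs from CON by both the polymer and the diet. The RNA of 7 mice was pooled for each array, and each group had a single array per tissue. No difference below therefore has a replicate check, an error or a p-value. Expression was read on Affymetrix Mouse Genome 430 2.0 arrays as a signal in linear units, and a gene is given by its brightest set of probes. Genes were those with probe sets of exactly 1 gene symbol whose signal was above the median of the 3 liver arrays, 96.6, in CON or DSSPAR. They numbered 12721 of 18194 genes with 1 symbol. This median was used as a floor: lower values were raised to it, and a fold against a floored array is written as "at least". Among the genes at that limit, Csl, Tex36 and Cd200 were kept with a brighter signal of 96.6395, 96.6412 and 96.6498, and Casq1, Gm38983 and 5730522E02Rik were left out at 96.6063, 96.6118 and 96.6208.

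The liver makes most plasma proteins. In inflammation, interleukin-6 and interleukin-1 act on hepatocytes through the STAT3 and NF-kappaB routes, and the cells change the proteins they secrete, which is called the acute phase response. Genes of drug, lipid and hormone metabolism are often lower in such livers, and Kupffer cells, the resident macrophages, take up material that arrives from the gut through the portal vein.

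The arrays labelled liver read as liver. Albumin (Alb), the main plasma protein, had a signal of 87388 in CON, 111057 in DSS and 59502 in DSSPAR, and Ttr, the carrier of thyroid hormone, of 92358 in CON, 135115 in DSS and 70244 in DSSPAR. All 19 hepatocyte genes on the array lay above the floor. Of 12 T and NK cell markers on the array 8 lay above it, and none of those was past 2-fold. The 3 liver arrays had been scaled to the same trimmed mean, 500.0, but their median signals were 107.0 in CON, 96.7 in DSS and 86.5 in DSSPAR, and the brightest probe set read 127455, 150419 and 96444.7. The ratio of the 3 prime to the 5 prime probe set of beta-actin, a measure of RNA integrity and labelling, was 3.55 in CON, 3.53 in DSS and 2.63 in DSSPAR, and its part in the results was not tested. Pairs of probe sets of 1 gene differed in their log2 ratio with a robust SD of 0.48, narrower among the brighter pairs (0.37) and wider among the dimmer (0.67). Where a gene past 2-fold had more than 1 measured probe set (311 genes), the sets lay all on the same side of CON in 68.8%, beside 49.9% of all 5432 genes kept with more than 1. Of 83 probe sets for olfactory, vomeronasal and taste receptors, genes the liver is not known for, 22 lay above the floor in CON or DSSPAR. None of those 22 was past 2-fold. Over all genes kept 3.26% were at least 2-fold higher and 3.45% lower, and in the dimmest of 10 equal bins 13 and 38 of 1273. With 22 probe sets and shares this low, the absence of calls decides nothing.

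Most acute phase genes, the metallothionein genes and some genes of phagocytes were higher in DSSPAR than in CON, and several enzymes of steroid, drug and fatty acid metabolism, together with the iron hormone genes, were among the lowest. The highest ratio belonged to Lcn2 and the lowest to Ugt2b38. In all, 415 genes (3.26% of those kept) were at least 2-fold higher in DSSPAR and 439 (3.45%) at least 2-fold lower. These shares are the background for the counts of each list below. Past 4-fold there were 41 higher (0.322%) and 18 lower (0.141%), so the larger differences lay more often on the higher side. Counting differences of any size, 46.2% of genes kept lay above CON and 53.8% below. The split depended on the scaling. With every array divided by its own median signal (called median centring below) it was 1007 higher and 188 lower, and the median of all genes kept moved from -0.04 to 0.25 on the log2 scale. Other settings named below are a higher floor, at the 75th percentile of signal, centring on the probe sets that exceed the floor in all 3 arrays (bright centring), quantile normalization, the mean over all measured probe sets of a gene in place of the brightest, and leaving out probe sets that other transcripts may share. For DSS against CON, which shares the CON array, 616 of 13034 genes (4.73%) lay past 2-fold on the higher side and 548 (4.2%) on the lower.

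**Figure D1:**
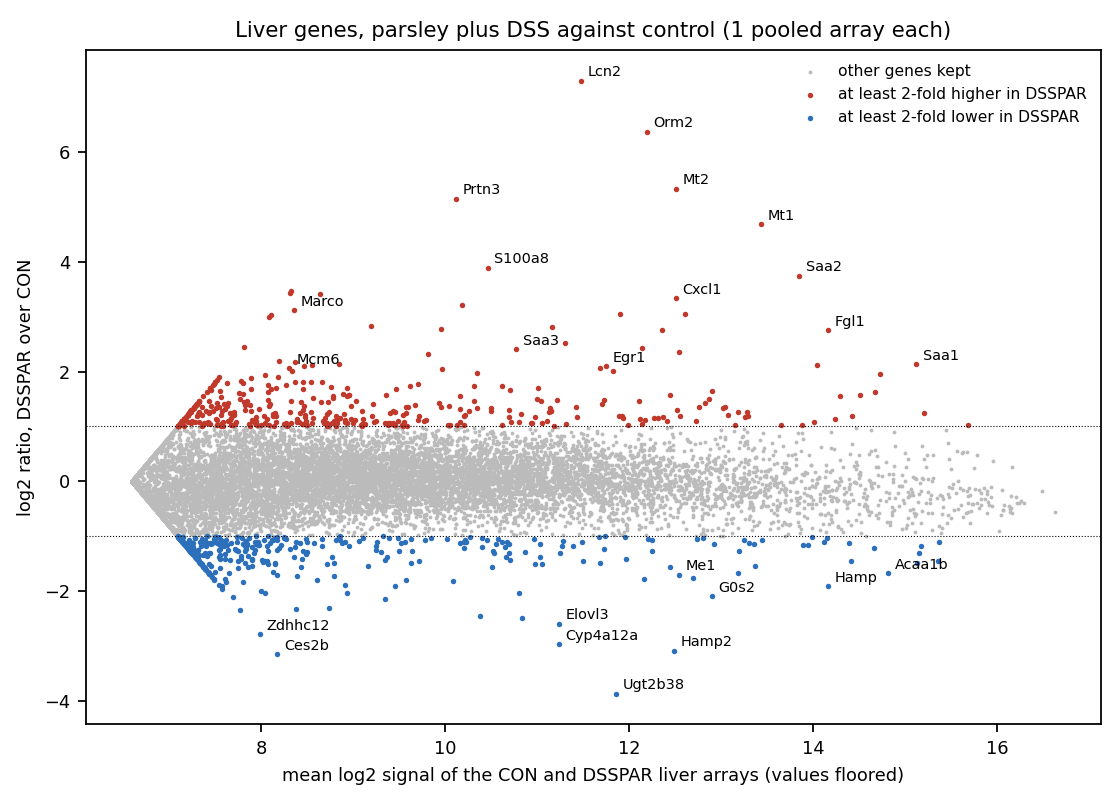
Log2 ratio of DSSPAR over CON (vertical axis) against the mean log2 signal of both liver arrays (horizontal axis, values floored) for the 12721 genes kept, each a dot, with 1 pooled array per group. Red dots are the 415 genes at least 2-fold higher in DSSPAR, blue dots the 439 at least 2-fold lower, and dotted lines mark 2-fold. Of the genes labelled, Lcn2 stands highest at 7.30 and Ugt2b38 lowest at -3.87.

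Acute phase proteins formed the group with the highest median. Among its 28 members 19 were at least 2-fold higher in DSSPAR, 1 was at least 2-fold lower and the median log2 ratio was 1.60, beside -0.04 over all genes. Lcn2, whose product binds bacterial siderophores and starves bacteria of iron, had a signal of 227 in CON, 56782 in DSS and 35786 in DSSPAR. It was low in CON alone and was 158-fold higher in DSSPAR, a log2 ratio of 7.30 that was 6.61 with the higher floor. Orm2, an orosomucoid that carries drugs and steroids in plasma, had a signal of 513 in CON, 50824 in DSS and 42548 in DSSPAR, which is 82.9-fold higher in DSSPAR than in CON. Its relative Orm3 was under the floor in CON at 16.9 and read 1062 in DSSPAR, at least 11-fold higher (a log2 ratio of 3.46, and 1.53 with the higher floor). Orosomucoid 1 (Orm1), named after its values were seen, was bright in all 3 arrays, at 32358 in CON, 95289 in DSS and 61648 in DSSPAR, and was short of 2-fold in DSSPAR. The orosomucoid genes are close in sequence, so their probes may share signal.

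The serum amyloid A genes, which encode apolipoproteins of high density lipoprotein in inflammation, were all higher, Saa1 and Saa4 being named after their values were seen. Saa2 had a signal of 4034 in CON, 101133 in DSS and 54046 in DSSPAR and was 13.4-fold higher in DSSPAR. For Saa1, a near copy of it whose transcripts the probes may not fully separate, the signal was 17015 in CON, 132750.0 in DSS and 74663 in DSSPAR. Saa4, the constitutive member of the family, read 13534 in CON, 36725 in DSS and 40291 in DSSPAR and was 2.98-fold higher in DSSPAR. In these 3 genes both polymer-treated arrays lay above CON. Saa3, which macrophages also make, had a signal of 760.2 in CON, 25048 in DSS and 4031 in DSSPAR, so DSSPAR lay 5.30-fold above CON and well below DSS.

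The metal-binding metallothioneins, which store zinc and are induced by metals, glucocorticoids and interleukin-6, stood among the 5 highest of the genes ranked. Mt2 read 919 in CON, 65090.5 in DSS and 36946 in DSSPAR and was 40.2-fold higher in DSSPAR, and Mt1 read 2176 in CON, 101145 in DSS and 56099 in DSSPAR and was 25.8-fold higher. In both genes CON was the low array. The size for Mt1 rests on a probe set that other transcripts may share: its log2 ratio of 4.69 was 3.33 as the mean over probe sets and 1.97 without shared probe sets. Steap4, a metalloreductase of the plasma membrane, had a signal of 2161 in CON, 21498 in DSS and 17938 in DSSPAR (8.30-fold higher). Lbp, the plasma protein that hands lipopolysaccharide to CD14, read 1057 in CON, 6347 in DSS and 6036 in DSSPAR, with little between the polymer-treated arrays, and its log2 ratio of 2.51 was 1.78 as the mean over probe sets. Serpina3n, a protease inhibitor, had a signal of 1954 in CON, 17284 in DSS and 10476 in DSSPAR and was 5.36-fold higher in DSSPAR.

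The remaining acute phase genes are named here after their values were seen. Serum amyloid P (Apcs), the major pentraxin of the mouse acute phase, read 13789 in CON, 93996 in DSS and 53656 in DSSPAR (3.89-fold higher in DSSPAR). Lrg1, a leucine-rich glycoprotein, was 4.35-fold higher, and the inter-alpha-trypsin inhibitor chains Itih3 and Itih4, which bind hyaluronan, were 3.10-fold and 2.37-fold higher. Several classical members stayed near CON in DSSPAR. Haptoglobin (Hp), which binds free haemoglobin, read 39745 in CON, 82955 in DSS and 41406 in DSSPAR, so only the DSS array was high. Hemopexin (Hpx), C-reactive protein (Crp) and the fibrinogen chains Fga, Fgb and Fgg had log2 ratios of -0.22, 0.05, 0.52, 0.27 and -0.10 in DSSPAR and 0.62, 0.57, 0.77, 0.88 and 0.63 in DSS. Alpha-2-macroglobulin (A2m), a protease inhibitor, had a signal of 157 in CON, 2042 in DSS and 135 in DSSPAR and was high in DSS alone. Over the list, the median log2 ratio was 1.60 in DSSPAR and 2.18 in DSS, each against the same CON array. Of 8 negative acute phase proteins, which usually fall in inflammation, none was past 2-fold in DSSPAR, and Alb and Ttr had log2 ratios of -0.55 and -0.39. Fetub, a fetuin that inhibits proteases, read 6370.5 in CON, 9816 in DSS and 11199 in DSSPAR and was the highest of the 8.

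**Figure D2:**
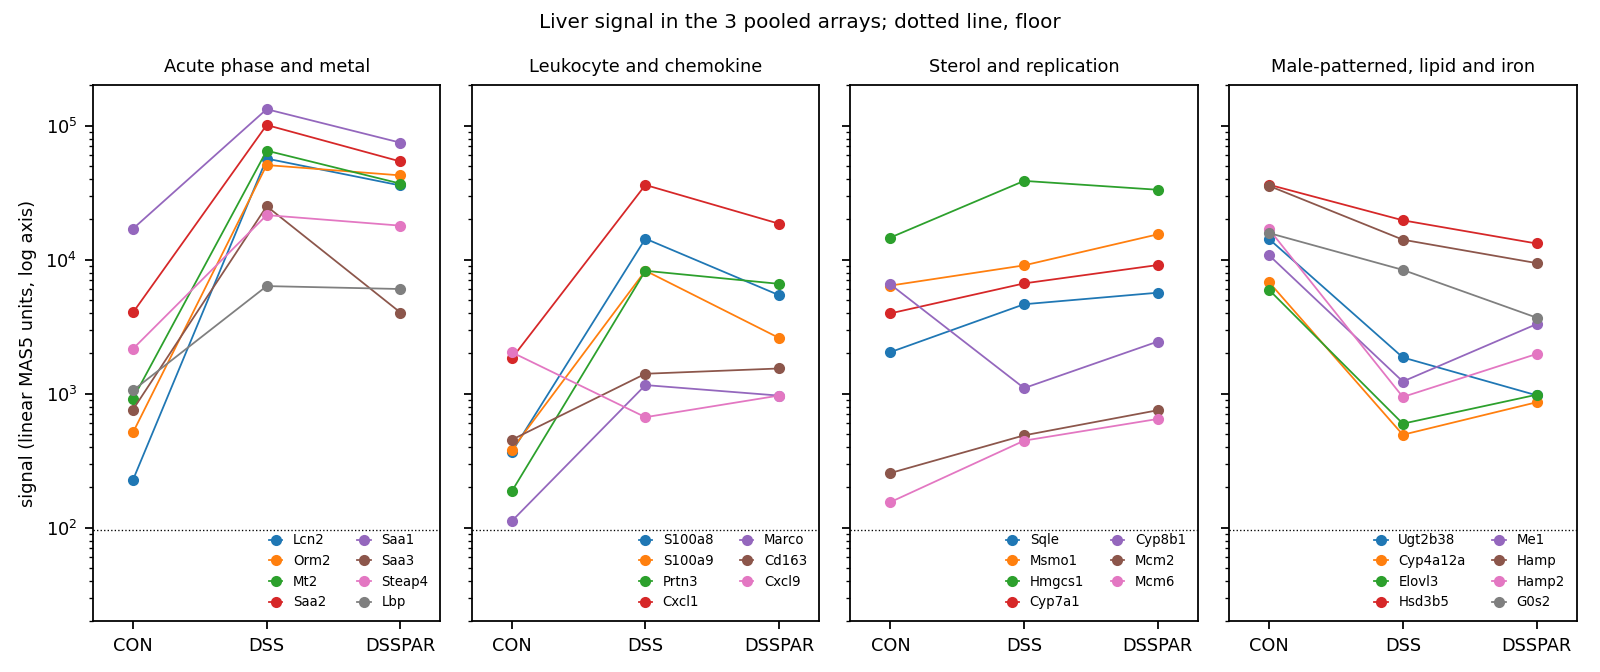
Liver signal (log axis, linear MAS5 units) of selected genes in the CON, DSS and DSSPAR arrays, in 4 panels, 1 point per pooled array. Lines join the 3 arrays of a gene for reading only, and the dotted line is the floor of 96.6. Lcn2, Orm2 and Mt2 are low in CON and high in both polymer-treated arrays, whereas Saa3 in DSSPAR (4031) lies between CON (760.2) and DSS (25048).

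The cytokine signalling genes were higher as a group. Of 26 measured, 10 were at least 2-fold higher in DSSPAR and 0 lower, with a median of 0.63. Among receptors, Il6st, the gp130 chain shared by the interleukin-6 family, read 1350.1 in CON, 2929 in DSS and 3023 in DSSPAR (2.24-fold higher, with a log2 ratio of 0.93 as the mean over probe sets). Il6ra, the interleukin-6 binding chain, had a signal of 505 in CON, 829.6 in DSS and 1316 in DSSPAR, and Osmr, the oncostatin M receptor, of 117 in CON, 824 in DSS and 414 in DSSPAR. Both fell short of 2-fold as the mean over probe sets, at 0.87 and 0.81, and Osmr did so as well with the higher floor (0.17). Il1r1, the signalling receptor of interleukin-1, read 785 in CON, 4709 in DSS and 1812 in DSSPAR, so that DSSPAR lay between CON and DSS. Tnfrsf1a, a receptor of tumour necrosis factor, read 1769 in CON, 3627 in DSS and 3657 in DSSPAR and was 2.07-fold higher (0.98 under bright centring).

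Stat3, the transcription factor of the interleukin-6 route, was highest in DSSPAR. Its signal was 1145 in CON, 2347 in DSS and 3715 in DSSPAR, with 4 probe sets above the floor on the same side of CON, and its log2 ratio of 1.70 was 1.04 as their mean. Socs3, the feedback inhibitor of that route, read 3133 in CON, 10215 in DSS and 6791 in DSSPAR and was 2.17-fold higher in DSSPAR, but its log2 ratio was 0.41 without shared probe sets. Nfkbiz, a nuclear co-factor of NF-kappaB, had a signal of 914 in CON, 5361 in DSS and 2302 in DSSPAR and was 2.52-fold higher. Il1rn, the interleukin-1 receptor antagonist, read 152 in CON, 821 in DSS and 370.0 in DSSPAR, and its log2 ratio of 1.29 became 0.01 with the higher floor. Irak1, a kinase downstream of the interleukin-1 receptor, had probe sets on both sides of CON: its ratio of 1.27 was -0.0074 without shared probe sets. Among the cytokine genes, Il6 and Tnf lay under the floor in CON and DSSPAR. The signals were 38.2 and 28.5 for Il6 and 63.9 and 67.8 for Tnf. Il1a, which encodes interleukin-1 alpha, was under the floor in CON and above it in DSSPAR. Its log2 ratio was at least 1.09, and it was not kept with the higher floor.

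Promoter sequences are shown for some genes of these groups, chosen with the values known. They are Steap4, Apcs and Socs3 as higher genes, Hamp as the acute phase gene that was lower, and Hmgcs1, Msmo1 and Mcm6. The last 3 belong to the sterol and replication genes described further on. Every window shown holds the motif marked in it, so the choice does not stand for genes without a match. Each line gives the 250 bases before the annotated start, 5′ to 3′ on the gene's strand, from RefSeq on GRCm38.p6. Capitals mark matches to TTCNNNGAA, the palindrome that STAT factors are known to bind, in the first 4, and to CCAAT on either strand (ATTGG when read on the other) in the last 3. The regions are chr5:7960222-7960471 on the plus strand for Steap4, chr1:172895055-172895304 on the minus strand for Apcs, chr11:117969367-117969616 on the minus strand for Socs3 and chr7:30944030-30944279 on the minus strand for Hamp. Those of the others are chr13:119690101-119690350 on the plus strand for Hmgcs1, chr8:64733579-64733828 on the minus strand for Msmo1 and chr1:128359706-128359955 on the minus strand for Mcm6.
Steap4: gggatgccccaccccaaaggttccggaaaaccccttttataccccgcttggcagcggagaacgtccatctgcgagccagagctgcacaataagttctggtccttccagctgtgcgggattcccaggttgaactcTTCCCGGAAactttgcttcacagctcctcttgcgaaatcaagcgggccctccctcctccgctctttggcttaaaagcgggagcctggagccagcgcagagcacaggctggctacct
Apcs: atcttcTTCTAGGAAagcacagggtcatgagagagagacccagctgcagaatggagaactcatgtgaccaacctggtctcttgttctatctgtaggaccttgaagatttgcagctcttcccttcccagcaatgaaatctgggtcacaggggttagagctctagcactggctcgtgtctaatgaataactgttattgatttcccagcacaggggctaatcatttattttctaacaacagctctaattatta
Socs3: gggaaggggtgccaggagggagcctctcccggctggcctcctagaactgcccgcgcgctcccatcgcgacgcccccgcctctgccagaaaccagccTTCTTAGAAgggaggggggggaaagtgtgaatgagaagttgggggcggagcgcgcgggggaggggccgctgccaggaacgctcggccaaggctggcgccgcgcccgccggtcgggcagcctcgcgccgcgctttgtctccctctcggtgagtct
Hamp: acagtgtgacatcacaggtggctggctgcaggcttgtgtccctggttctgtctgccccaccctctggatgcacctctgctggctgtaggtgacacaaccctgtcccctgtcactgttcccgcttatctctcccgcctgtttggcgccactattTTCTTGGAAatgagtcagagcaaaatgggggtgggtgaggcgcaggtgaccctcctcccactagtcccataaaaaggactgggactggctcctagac
Hmgcs1: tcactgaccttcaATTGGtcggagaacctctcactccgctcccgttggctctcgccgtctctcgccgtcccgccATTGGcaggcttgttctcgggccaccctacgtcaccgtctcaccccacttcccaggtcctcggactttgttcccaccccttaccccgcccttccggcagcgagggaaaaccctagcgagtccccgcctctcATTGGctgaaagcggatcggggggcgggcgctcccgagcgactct
Msmo1: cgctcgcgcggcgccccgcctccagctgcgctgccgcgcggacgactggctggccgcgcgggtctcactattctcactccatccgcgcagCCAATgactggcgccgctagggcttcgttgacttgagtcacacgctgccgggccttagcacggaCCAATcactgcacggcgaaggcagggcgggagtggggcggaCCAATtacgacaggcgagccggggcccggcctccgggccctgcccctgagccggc
Mcm6: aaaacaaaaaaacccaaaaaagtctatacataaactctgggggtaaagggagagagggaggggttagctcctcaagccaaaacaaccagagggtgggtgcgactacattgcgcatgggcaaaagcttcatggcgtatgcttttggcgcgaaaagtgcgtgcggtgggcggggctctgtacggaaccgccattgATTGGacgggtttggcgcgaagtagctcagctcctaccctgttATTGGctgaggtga
Of 24 acute phase genes kept with a promoter listed, 7 held TTCNNNGAA (29.2%), against 7.18% of 27025 genes. They were Apcs, Fga, Fgb, Steap4, Hamp, Socs3 and Itih4, and the window held no match in Lcn2, Orm2 and Saa2, the members of high ratio. A match is a description of letters in this window and not a measured site. The core motifs of the dioxin receptor (TTGCGTG) and of the antioxidant response (TGACNNNGC) were present in 0 and 4 of the 24, against 0.925% and 10.1% of all genes.

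Markers of myeloid cells were higher in DSSPAR, unevenly so. Of 19 Kupffer cell and macrophage markers, 8 were at least 2-fold higher and 0 lower, with a median of 0.75, and their summed signal was 49799 in CON, 96848 in DSS and 78246 in DSSPAR. Marco, a scavenger receptor that binds bacteria, read 112 in CON, 1158 in DSS and 966 in DSSPAR and was 8.65-fold higher in DSSPAR (a log2 ratio of 3.11, and 1.40 with the higher floor). Cd163, the receptor for haptoglobin-bound haemoglobin, had a signal of 452 in CON, 1407 in DSS and 1540.4 in DSSPAR, and Timd4, a receptor for dying cells on resident Kupffer cells, of 244 in CON, 526 in DSS and 665 in DSSPAR. In these 3 genes both polymer-treated arrays lay well above CON, although Timd4 was short of 2-fold with the higher floor (0.86). Cd14, the co-receptor of lipopolysaccharide, read 138 in CON, 983 in DSS and 381 in DSSPAR and lay between the other arrays in DSSPAR, with a ratio of 0.05 under that higher floor. Clec4f and Adgre1, which define Kupffer cells and macrophages and are named with Ccr2 after their values were seen, had log2 ratios of 0.32 and -0.01. Csf1r, the growth factor receptor of macrophages, read 6575 in CON, 9522 in DSS and 12431 in DSSPAR and Ccr2, a marker of recruited monocytes, 226 in CON, 582 in DSS and 192 in DSSPAR. Of the 19 markers 17 lay above CON, beside 46.2% of all genes. Adgre1 and Clec4f did not pass 2-fold, but Vsig4, Folr2 and Mpeg1 of the same list did, at log2 ratios of 1.05, 1.06 and 1.10. Under bright centring Vsig4 and Folr2 were short of it, at 0.98 and 0.99. In RNA of whole liver, more cells of a type and more RNA per cell cannot be told apart.

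Of 13 neutrophil markers on the array 10 lay above the floor. Of those, 9 lay above CON, 3 were at least 2-fold higher, and the median was 0.56. Those 3 were Lcn2, which hepatocytes also make, and S100a8 and S100a9, the subunits of calprotectin. Csf3r, Camp, Mmp8 and Mmp9 exceeded the floor in DSSPAR and not in CON, so they could only lie above CON. The count of 9 is thus partly set by the floor and is not read as a result, and the median includes these genes. S100a8 had a signal of 367 in CON, 14340.5 in DSS and 5429 in DSSPAR (14.8-fold higher in DSSPAR) and S100a9 of 381 in CON, 8274 in DSS and 2602 in DSSPAR (6.82-fold higher). Both were highest in DSS. The summed signal of the list was 1814 in CON, 80791 in DSS and 44867 in DSSPAR, most of it from Lcn2. Granule and receptor genes that define neutrophils were dim: Mpo, the myeloperoxidase gene, and Cxcr2 lay under the floor in all 3 arrays, and Csf3r read 10.4 in CON, 12.8 in DSS and 110.0 in DSSPAR. Elane, the neutrophil elastase, read 190.3 in CON, 265 in DSS and 31.2 in DSSPAR, and was lowest in DSSPAR. Prtn3, the related proteinase 3, had the fourth highest ratio of the genes ranked, with a signal of 186 in CON, 8258 in DSS and 6597 in DSSPAR (35.4-fold higher, a log2 ratio of 5.15 that was 4.17 with the higher floor). The part of these cell markers in the acute phase result was not tested.

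**Figure D3:**
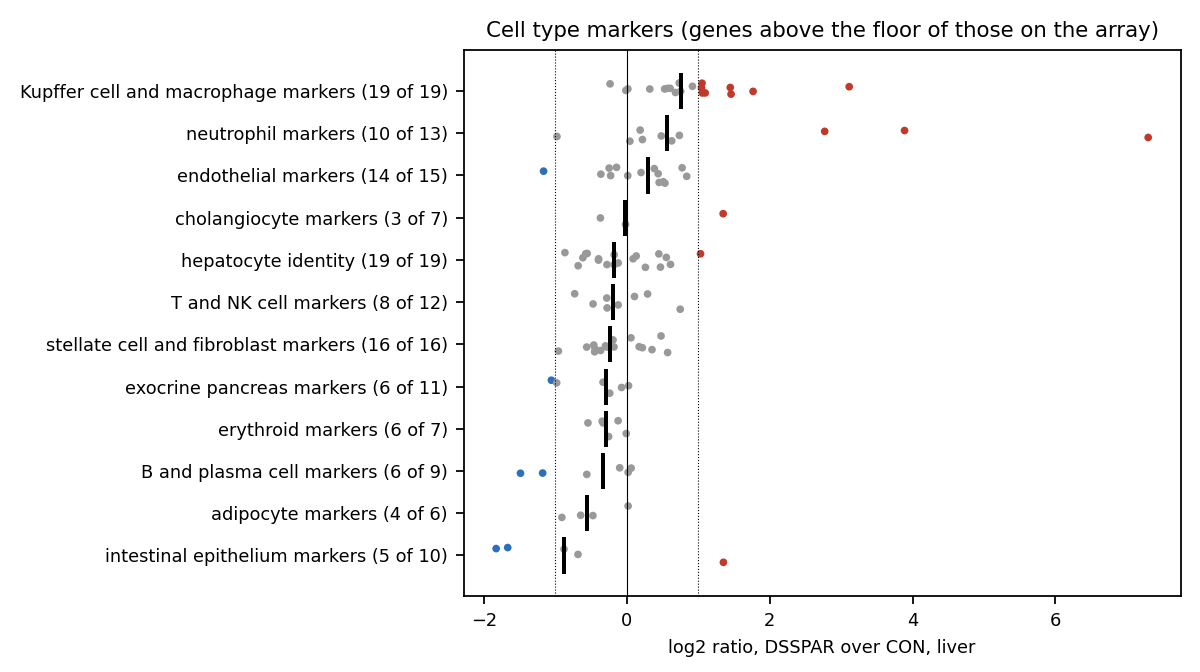
Log2 ratio of DSSPAR over CON in liver for markers of 12 cell types, each dot a gene above the floor, black bars the list medians and dotted lines 2-fold; the numbers give the genes above the floor of those on the array. Kupffer cell and macrophage markers have the highest median, 0.75, and in the neutrophil list 3 genes, Lcn2, S100a8 and S100a9, stand apart from the rest.

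Chemokine and cytokine genes, taken as 1 list, differed one by one. Of 22 measured, 6 were at least 2-fold higher and 1 lower, while the list median of -0.15 turned to 0.16 under median centring and to 0.24 with the higher floor. Cxcl1, a neutrophil attractant that hepatocytes secrete, had a signal of 1829 in CON, 36092 in DSS and 18538 in DSSPAR and was 10.1-fold higher in DSSPAR. Cxcl14, a chemokine of epithelia, was under the floor in CON (31.8) and read 1044 in DSSPAR, at least 10.8-fold higher (a log2 ratio of 3.43, 1.51 with the higher floor and 2.01 as the mean over probe sets). Cxcl13, an attractant of B cells, read 286 in CON, 1916 in DSS and 839 in DSSPAR, and Ccl6, a myeloid chemokine, 729 in CON, 2534 in DSS and 1807 in DSSPAR. In the last 2 genes DSSPAR lay between CON and DSS. Cxcl9, an interferon-gamma target that attracts T cells, went the other way with 2036 in CON, 667 in DSS and 967 in DSSPAR, and was 2.11-fold lower (short of 2-fold under median centring, at -0.77, and as the mean over probe sets, at -0.80). Csf1, the macrophage growth factor, had a ratio of 1.21 from its brightest probe set, 0.24 with the higher floor and -0.13 as the mean over probe sets. Il1a, given above, was also past 2-fold higher, by at least 1.09 on the log2 scale. Of 31 interferon-stimulated genes 2 were higher and 1 lower past 2-fold (3.26% and 3.45% of all genes were), with a median of 0.16. The higher were Oas1a (444 in CON, 879.6 in DSS and 1077 in DSSPAR) and Oas2, which encode sensors of double-stranded RNA. Cxcl9 was the lower. Tapbp, which helps to load peptides on class I molecules, read 1445 in CON, 2057 in DSS and 3454 in DSSPAR and was the only one of 13 class I presentation genes past 2-fold.

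Complement genes lay above CON almost without exception, by small amounts. Of 23 measured, 22 were above CON (46.2% over all genes), but 1 alone was past 2-fold, C1qc, which macrophages make (2.07-fold higher, and 0.99 on the log2 scale after quantile normalization). The median was 0.55 in DSSPAR. Hc, complement component 5, read 16213 in CON, 26467 in DSS and 31669.6 in DSSPAR, and C4bp, an inhibitor of the classical route, 18309.8 in CON, 31474 in DSS and 34943 in DSSPAR. C8g was the exception, with a signal of 43661 in CON, 35786 in DSS and 25273 in DSSPAR and a log2 ratio of -0.79. Among 20 coagulation genes, 3 exceeded CON by 2-fold or more and 0 lay as far below it, with a median of 0.43. Serpina10, the inhibitor of factor Xa that acts with protein Z, had a signal of 11754 in CON, 40552 in DSS and 34534 in DSSPAR and was 2.94-fold higher. Pros1, protein S, the co-factor of the anticoagulant protein C, read 1419 in CON, 2076 in DSS and 3596 in DSSPAR and was highest in DSSPAR. Serpinf2, the plasmin inhibitor, was 2.02-fold higher, and 0.95 on the log2 scale under bright centring.

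Iron genes were split, with 6 of 23 metal and iron genes past 2-fold on the higher side and 4 on the lower. Hamp, which encodes hepcidin, the hormone that blocks iron export from cells, had a signal of 35496 in CON, 14091 in DSS and 9426 in DSSPAR and was 3.77-fold lower in DSSPAR. Its near copy Hamp2 read 16794 in CON, 944 in DSS and 1976 in DSSPAR and was 8.50-fold lower, and the probes may not fully separate the pair. CON was the high array in both genes. Bmp6, the endothelial signal that induces hepcidin, read 207 in CON, 106 in DSS and 88.7 in DSSPAR, and Id1, a target of the same route, 959.9 in CON, 561 in DSS and 471 in DSSPAR. Both were past 2-fold lower in DSSPAR, and under median centring neither was, at -0.91 and -0.72. Higher members included Slc39a14, a zinc and iron importer of hepatocytes, at 1461 in CON, 2426 in DSS and 3558 in DSSPAR. Tfr2, a sensor of transferrin iron, read 11276 in CON, 12856 in DSS and 23993 in DSSPAR and was high in DSSPAR alone. Slc11a2, the divalent metal transporter, read 131 in CON, 564 in DSS and 312 in DSSPAR but had a ratio of 0.55 as the mean over probe sets. Ceruloplasmin (Cp), the copper-bearing ferroxidase, read 36859 in CON, 101022 in DSS and 75150.0 in DSSPAR (2.04-fold higher, and 0.96 on the log2 scale under bright centring).

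Cholesterol synthesis genes were higher in DSSPAR. Of 21 measured, 5 were at least 2-fold higher and 0 lower, 18 lay above CON (46.2% of all genes did), and the median was 0.77. In DSS against the same CON array the median was 0.04. Hmgcs1, an early enzyme of the mevalonate route, had a signal of 14624 in CON, 38717 in DSS and 33232 in DSSPAR and was 2.27-fold higher in DSSPAR. Sqle, squalene epoxidase, read 2041 in CON, 4646 in DSS and 5664 in DSSPAR (2.78-fold higher). In these genes both polymer-treated arrays lay above CON. Msmo1, a sterol methyl oxidase, had a signal of 6404 in CON, 9063 in DSS and 15451 in DSSPAR, and its log2 ratio of 1.27 was 0.61 without shared probe sets. Cyp51, the lanosterol demethylase, read 3509 in CON, 7314 in DSS and 7937 in DSSPAR, and was 0.87 as the mean over probe sets. Srebf2, the transcription factor of the pathway, read 132 in CON, 372 in DSS and 271 in DSSPAR and was 2.05-fold higher (0.97 under bright centring).

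Other sterol enzymes lay above CON in DSSPAR alone, short of 2-fold. Nsdhl, a sterol dehydrogenase, read 3434 in CON, 3414 in DSS and 6755 in DSSPAR. Fdps, which makes farnesyl diphosphate, read 7278 in CON, 5471 in DSS and 12883 in DSSPAR, and Dhcr7, which catalyses the last step to cholesterol, 2136 in CON, 1771 in DSS and 3894 in DSSPAR. Lss, lanosterol synthase, read 1202 in CON, 1208 in DSS and 2149 in DSSPAR. In these 4 genes DSS did not exceed CON by over 0.01 log2. Insig1, the sterol sensor that holds the pathway back and is named after its value was seen, had a ratio of -0.03. CCAAT matched in 15 of 16 cholesterol genes with a promoter listed (93.8%), against 34.5% of all genes and 8.33% of the acute phase genes; the Hmgcs1 and Msmo1 windows printed above hold 3 matches each, 1 of those in Hmgcs1 overlapping a GCCNNNGGC match. The E-box CACGTG was present in 3 of the 16 (18.8%), against 6.05% of all genes.

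Bile acid genes had 1 member past 2-fold on each side. Cyp7a1, the rate-limiting enzyme of bile acid synthesis, had a signal of 3972 in CON, 6648 in DSS and 9114 in DSSPAR and was 2.29-fold higher, with DSSPAR the highest array. Cyp8b1, which makes the 12-alpha-hydroxylated bile acids, read 6529 in CON, 1099 in DSS and 2447 in DSSPAR and was 2.67-fold lower. Its DSS signal was lower still. Cyp7b1, of the alternative route, read 27384 in CON, 8927 in DSS and 14957 in DSSPAR, and the uptake transporter gene Slco1a1 26458 in CON, 23277 in DSS and 14820.4 in DSSPAR. The 25 genes had a median of -0.18, which became 0.13 under median centring.

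Proliferation genes were dim and higher in DSSPAR. Of 39 on the array, 7 lay under the floor in both arrays, 12 of the other 32 were at least 2-fold higher and 0 lower, and the median was 0.82. In DSS against the same CON array the median was 0.74, over 28 genes. The summed signal of the list was highest in DSS, at 22591 in CON, 36475 in DSS and 25003 in DSSPAR. The minichromosome maintenance genes, which encode the helicase that opens DNA for replication, led the list. Mcm6 had a signal of 155 in CON, 446 in DSS and 647 in DSSPAR and was 4.17-fold higher, but 0.82 on the log2 scale with the higher floor. Mcm5 read 155 in CON, 532 in DSS and 698 in DSSPAR and Mcm2 255 in CON, 488 in DSS and 752 in DSSPAR, and without shared probe sets their ratios were 0.88 and 0.36. Mcm5 was also short of 2-fold with the higher floor (0.93) and Mcm2 as the mean over probe sets (0.96). In all 3, DSSPAR was the highest array and CON the lowest. Mki67, a marker of cycling cells, was under the floor in CON at 47.9 and read 267 in DSSPAR, at least 2.77-fold higher. Cdk1, the kinase that starts mitosis, read 112 in CON, 292 in DSS and 300.2 in DSSPAR, and Foxm1, a transcription factor of the cell cycle, 75.4 in CON, 10.3 in DSS and 246 in DSSPAR. Stmn1, which destabilises microtubules, had a signal of 594 in CON, 1136 in DSS and 1603 in DSSPAR and was 2.70-fold higher (0.94 without shared probe sets). For Mcm3 and Cdc20 the ratio turned from 1.54 and 1.49 to -0.12 and -0.09 without shared probe sets. Pcna, the sliding clamp of the replication fork and a bright member named after its values were seen, read 2646 in CON, 2851 in DSS and 3233 in DSSPAR and was short of 2-fold. Of 26 proliferation genes with a promoter listed 22 held CCAAT (84.6%), 2 of the matches in the Mcm6 window printed above. Cdkn1a, the p21 inhibitor of cell division, read 155 in CON, 379 in DSS and 188 in DSSPAR and was high in DSS alone.

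Among immediate early genes, which cells induce within minutes of a stimulus, 4 of 21 were at least 2-fold higher and 2 lower. Fos, a subunit of AP-1, had a signal of 219 in CON, 1148 in DSS and 1563 in DSSPAR and was 7.13-fold higher (a log2 ratio of 2.83, and 2.09 with the higher floor). Egr1, a zinc finger factor, read 1660.4 in CON, 4114 in DSS and 7112 in DSSPAR (4.28-fold higher). DSSPAR was the highest array for both. Gadd45g, a stress gene, read 1417 in CON, 933 in DSS and 409 in DSSPAR and Dusp1, a phosphatase that ends kinase signals, 3626 in CON, 1224 in DSS and 1699 in DSSPAR. The first was 3.46-fold lower in DSSPAR, and the ratio of Dusp1 was -0.79 under median centring. In the unfolded protein response 3 of 28 genes were higher and 1 lower past 2-fold, beside 3.26% and 3.45% of all genes (median 0.43). Asns, asparagine synthetase, read 313 in CON, 710.1 in DSS and 813 in DSSPAR and Pdia4, a protein disulphide isomerase, 1840.1 in CON, 4379 in DSS and 4148 in DSSPAR. Trib3, a pseudokinase of the same response, read 353 in CON, 284 in DSS and 137 in DSSPAR and was lower in DSSPAR, but at -0.72 as the mean over probe sets. Bag3, a co-chaperone, was the 1 of 20 heat shock genes past 2-fold, at 288 in CON, 656 in DSS and 859.7 in DSSPAR. Nfil3, a repressor of clock output genes, read 271 in CON, 599 in DSS and 878 in DSSPAR, and Nr1d1, a core clock repressor, 241 in CON, 30.6 in DSS and 88.0 in DSSPAR. Cry2, another core repressor of the clock, was 2.66-fold lower, and -0.62 with the higher floor. Time of death within the day is not given for the groups, and its part in the clock genes was not tested.

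Enzymes that conjugate drugs and steroids were mostly lower. Of 17 UDP-glucuronosyltransferase and sulphotransferase genes 5 were at least 2-fold lower and 0 higher, and the median of -0.54 was the lowest of the pathway lists. Of the 17 genes, 14 lay below CON, beside 53.8% of all genes, and 3 above. Sult1a1, a sulphotransferase, was the highest at a log2 ratio of 0.89. It was past 2-fold higher under median centring (1.20) and after quantile normalization (1.11). Ugt2b38 had the lowest ratio of the genes ranked, with a signal of 14232 in CON, 1862 in DSS and 972 in DSSPAR, which is 14.6-fold lower in DSSPAR than in CON. Ugt2b37 read 991 in CON, 536 in DSS and 241 in DSSPAR, and its ratio of -2.04 was -1.43 with the higher floor. Ugt2b1, one of the most abundant members, read 69680.4 in CON, 41727 in DSS and 25483 in DSSPAR. In these 3 genes of steroid and drug glucuronidation DSSPAR was the lowest array. The Ugt2b genes are close in sequence, so their probes may share signal. Sult1b1, which sulphates thyroid hormone, was 2.22-fold lower, and Ugt2a3 2.05-fold lower, but under median centring neither was past 2-fold, at -0.84 and -0.73.

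Several of the lowest genes are known to be male-patterned in mouse liver under growth hormone pulses. Of 25 growth hormone and sex-dependent genes 6 were at least 2-fold lower and 1 higher. Cyp4a12a, a male-predominant arachidonic acid hydroxylase, had a signal of 6773 in CON, 493 in DSS and 862 in DSSPAR and was 7.86-fold lower. Elovl3, which elongates fatty acids in male liver, read 5938 in CON, 597 in DSS and 981 in DSSPAR (6.06-fold lower). Hsd3b5, a male-specific 3-ketosteroid reductase, read 36225 in CON, 19661 in DSS and 13200.2 in DSSPAR (2.74-fold lower). CON was the high array in all 3, and DSSPAR was below DSS in Hsd3b5 only. Igfbp3, which carries insulin-like growth factor in plasma, read 495 in CON, 217 in DSS and 158 in DSSPAR, and its ratio was -0.43 with the higher floor. Cyp3a44, a female-predominant P450, was 2.39-fold lower at a dim signal of 245 in CON, 136 in DSS and 102 in DSSPAR (-0.95 under median centring). Igf1, the main growth hormone target, read 22320.0 in CON, 26161 in DSS and 20632 in DSSPAR. Of the 25 genes 18 lay below CON, beside 53.8% of all genes. The list median was -0.17, and moved to -0.43 with the higher floor, -0.34 without shared probe sets and -0.32 as the mean over probe sets. Igfbp1, which binds the same factor and is induced in fasting, was the higher member, with 4471 in CON, 12594 in DSS and 12609 in DSSPAR.

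Targets of the xenobiotic receptors were mostly within 2-fold of CON. Cyp1a2, a target of the dioxin receptor, had a signal of 12659 in CON, 3608 in DSS and 12067 in DSSPAR, so it was low in DSS alone. The other 4 measured targets of that receptor, among them Cyp1a1 at 151 in CON, 150.2 in DSS and 78.2 in DSSPAR, also stayed short of 2-fold in DSSPAR. Of 19 targets of CAR and PXR, Cyp3a13 was higher (4422 in CON, 12901 in DSS and 11894 in DSSPAR), and Cyp3a44 and Cyp2c55 were lower, Cyp2c55 by -1.13 on the log2 scale, -0.82 under median centring and -0.14 with the higher floor. Cyp3a11, the main drug-metabolizing P450 of mouse liver, read 69653 in CON, 85307 in DSS and 40992 in DSSPAR and was lowest in DSSPAR. Ces2a, a carboxylesterase of the same list, read 4267 in CON, 964 in DSS and 2594 in DSSPAR. Among 45 glutathione and NRF2 genes 2 were lower and 1 higher past 2-fold, beside 3.45% and 3.26% of all genes kept. Gsta2, a glutathione transferase, was 3.73-fold lower at 1359.7 in CON, 226 in DSS and 364 in DSSPAR. Me1 was lower and the efflux pump gene Abcc4 was at least 2.19-fold higher. Nqo1, a classical NRF2 target, read 237 in CON, 161 in DSS and 214 in DSSPAR. Gpx4, which reduces lipid peroxides, read 20532 in CON, 22197 in DSS and 10691 in DSSPAR and was low in DSSPAR alone, at a log2 ratio of -0.94. Carboxylesterases included Ces2b, at least 8.92-fold lower at 862 in CON, 99.5 in DSS and 37.7 in DSSPAR (a log2 ratio of -3.16, and -1.23 with the higher floor), and Ces1e, 4.11-fold lower at 3629 in CON, 1119 in DSS and 882 in DSSPAR.

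Fatty acid synthesis genes were below CON in 24 of 28 cases, beside 53.8% of all genes, 3 of them at least 2-fold lower and 0 higher. The median was -0.30 in DSSPAR and -0.98 in DSS, and the first became 0.00 under median centring. Me1, the malic enzyme that supplies NADPH for synthesis, had a signal of 10766 in CON, 1231 in DSS and 3300.1 in DSSPAR and was 3.26-fold lower in DSSPAR. Thrsp, a lipogenic factor induced by thyroid hormone and carbohydrate, read 55639 in CON, 12649.9 in DSS and 24451 in DSSPAR (-0.88 under median centring). Elovl6, a fatty acid elongase, read 4598 in CON, 1078 in DSS and 2788 in DSSPAR, and Pnpla5, a lipase of the same programme, 538 in CON, 32.9 in DSS and 314 in DSSPAR. In these 4 genes DSS was the lowest array and DSSPAR lay between. G0s2, an inhibitor of the lipase that mobilises triglyceride, differed, with DSSPAR lowest at 15783 in CON, 8385 in DSS and 3693 in DSSPAR (4.27-fold lower).

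Of 35 genes of fatty acid oxidation 28 lay below CON (53.8% of all genes did), 3 at least 2-fold, and 1 was at least 2-fold higher. Acaa1b, a peroxisomal thiolase, had a signal of 51658 in CON, 9098 in DSS and 16168 in DSSPAR and was 3.20-fold lower. Ehhadh, the peroxisomal bifunctional enzyme, read 5654 in CON, 2406 in DSS and 2806 in DSSPAR (-0.70 under median centring). Acot1, a thioesterase, was 2.48-fold lower at a dim 381 in CON, 79.6 in DSS and 154 in DSSPAR, and -0.05 with the higher floor. Cyp4a14, a fatty acid hydroxylase, went the other way at 234 in CON, 2219 in DSS and 539 in DSSPAR, and its ratio was 0.56 with the higher floor. The list median of -0.25 turned to 0.05 under median centring.

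Oxidative phosphorylation genes were below CON in 50 of 51 cases, beside 53.8% of all genes, by little. The median was -0.50, and it stayed below 0 under every scaling run, from -0.57 under bright centring to -0.20 under median centring. Atp5k, a small subunit of ATP synthase, was the 1 member past 2-fold, at 26095 in CON, 20188 in DSS and 12065 in DSSPAR, and was -0.81 under median centring. Cox6c and Ndufa4, small subunits of the respiratory chain, read 54461 in CON, 66816 in DSS and 29582 in DSSPAR and 43348 in CON, 53343 in DSS and 23742 in DSSPAR, so both were low in DSSPAR alone. Sdhb, the iron-sulphur subunit of complex II, read 21890.4 in CON, 11119.9 in DSS and 12116 in DSSPAR and was lower in both polymer-treated arrays. In DSS the list median was -0.45. Genes of short length had lower ratios in general: the median was -0.14 over 1656 genes of up to 5 kb and 0.03 over 3403 genes of over 50 kb. The brightest of 10 equal bins of genes had a median of -0.10, and the part of length and brightness in this result was not tested. Of 31 cytosolic ribosomal protein genes 22 lay below CON, beside the 53.8% of all genes, with 1 higher and 1 lower past 2-fold, both dim. Their median of -0.12 turned to 0.05 after quantile normalization and to 0.18 under median centring. The bright Rps7 read 56092 in CON, 83252 in DSS and 31792 in DSSPAR and Rps3 26237 in CON, 36144 in DSS and 14934 in DSSPAR.

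Glucose and amino acid genes had few members past 2-fold. G6pc, the enzyme that releases glucose from the liver, had a signal of 5536 in CON, 538 in DSS and 1960.4 in DSSPAR and was 2.82-fold lower in DSSPAR. Pck1, the gluconeogenic carboxykinase, read 14059.8 in CON, 7874 in DSS and 21705 in DSSPAR and Pklr, the liver pyruvate kinase, 2823 in CON, 637 in DSS and 1709.9 in DSSPAR. DSS was the lowest array in these 3 genes. Of 41 amino acid genes 1 was higher and 1 lower past 2-fold, beside 3.26% and 3.45% of all genes. Asns was the higher, and Csad, which makes the precursor of taurine, the lower at 2439 in CON, 1778 in DSS and 1058 in DSSPAR (-0.90 under median centring). Among 26 solute carrier genes 6 were higher and 0 lower. Slc41a2, a magnesium transporter, read 862 in CON, 6896 in DSS and 6051 in DSSPAR and was 7.02-fold higher. Slc3a1, a subunit of the cystine transporter, read 1606 in CON, 5129.6 in DSS and 6731 in DSSPAR, and Slc13a3, a carrier of dicarboxylates, 491 in CON, 1177 in DSS and 2035 in DSSPAR. In all 3 both polymer-treated arrays exceeded CON, although the probe sets of Slc13a3 did not all lie on 1 side and its ratio of 2.05 was 1.13 as their mean. Slc16a5, a monocarboxylate transporter, was under the floor in CON and DSS (46.3 and 34.4) and read 314 in DSSPAR, at least 3.25-fold higher than CON.

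Further lists overlap those above or had few members past 2-fold. Among 19 glucocorticoid-responsive genes 4 were higher, Lcn2, Mt1, Mt2 and Igfbp1, and 2 lower, Gadd45g and Dusp1. Fkbp5, a co-chaperone of the glucocorticoid receptor and a sensitive target of it, read 968 in CON, 2036 in DSS and 1897 in DSSPAR. Both polymer-treated arrays exceeded CON, by a log2 ratio of 0.97 in DSSPAR that was 0.54 as the mean over probe sets. Of 13 genes of p53 and growth arrest 2 were higher, Btg2, an antiproliferative gene (0.94 as the mean over probe sets), and Fas, the death receptor (0.99 under bright centring and after quantile normalization). None of 31 proteasome genes, 9 class II presentation genes or 19 apolipoprotein genes was past 2-fold, and Apoa4, an apolipoprotein of triglyceride-rich particles, came nearest at 9565 in CON, 18159 in DSS and 4813 in DSSPAR.

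**Figure D4:**
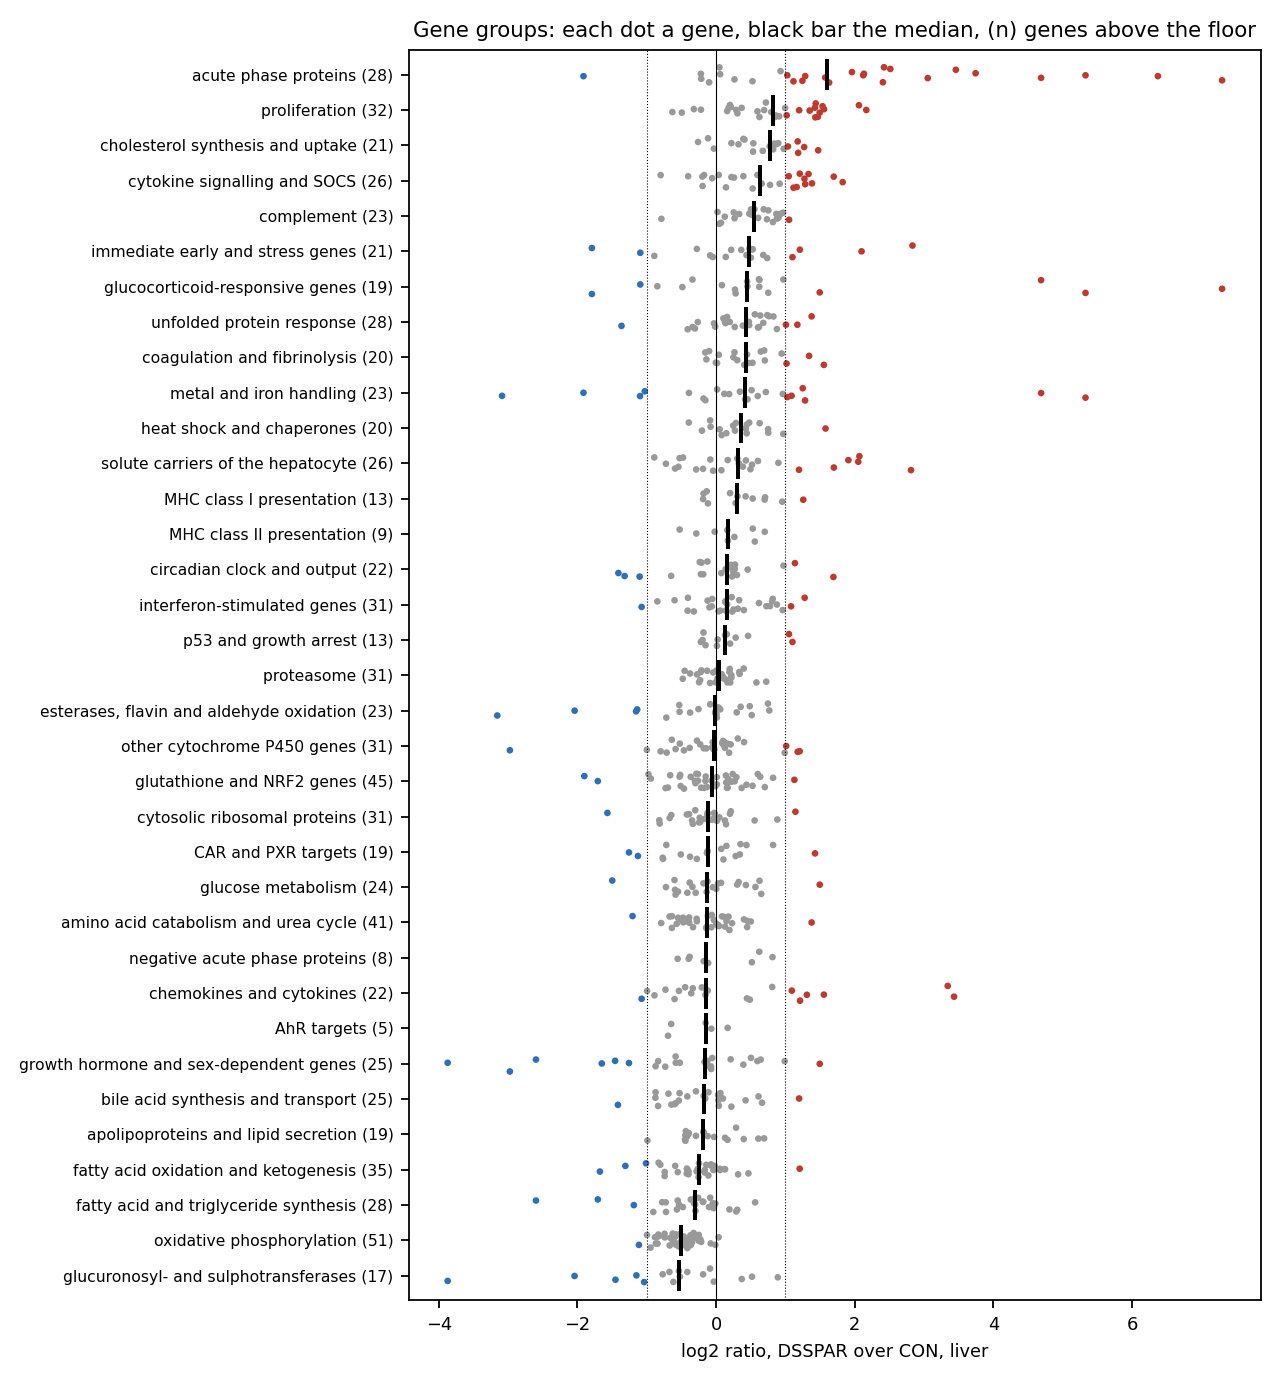
Log2 ratio of DSSPAR over CON in liver (horizontal axis) for genes of 35 pathway lists, sorted by median. Each dot is a gene above the floor, red where at least 2-fold higher and blue where at least 2-fold lower, black bars are medians, dotted lines mark 2-fold, and the number of genes is in brackets. Acute phase proteins stand highest (median 1.60), followed by proliferation (0.82) and cholesterol synthesis (0.77), and glucuronosyl- and sulphotransferases lowest (-0.54).

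Further genes of the highest and lowest ratios belonged to no list. Cyb561, a cytochrome of vesicle membranes, read 123 in CON, 1175 in DSS and 1304 in DSSPAR and was 10.6-fold higher in DSSPAR (a log2 ratio of 3.41, and 1.83 with the higher floor). Prg4, lubricin, read 1333 in CON, 8766 in DSS and 11034 in DSSPAR (8.28-fold higher). Crybb3, named for a lens crystallin, was under the floor in CON (92.1) and at least 8.13-fold higher (a log2 ratio of 3.02, and 1.10 with the higher floor). On the low side Etnppl, which breaks down phosphoethanolamine, had a signal of 4323 in CON, 496 in DSS and 773 in DSSPAR (5.59-fold lower), and Clec2h, a lectin of the NK receptor gene complex, of 3108 in CON, 891 in DSS and 567 in DSSPAR (5.49-fold lower). Omd, osteomodulin, read 1364 in CON, 783 in DSS and 309.8 in DSSPAR and was lowest in DSSPAR. Zdhhc12, a palmitoyltransferase, was low in DSSPAR alone at 667 in CON, 688 in DSS and 93.4 in DSSPAR, at least 6.90-fold lower, but -0.86 with the higher floor. Pnldc1 and Slc5a2 were also short of 2-fold with that floor, at -0.42 and -0.22, and Eepd1 without shared probe sets, at -0.02.

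Markers of other cells and of hepatocytes were counted in the same way. The hepatocyte list had a median of -0.18, which was 0.06 after quantile normalization, and Prox1, a hepatocyte transcription factor, was the 1 of its 19 genes past 2-fold (2.05-fold higher, 0.84 as the mean over probe sets). Of 14 endothelial markers 9 lay above CON and 5 below, with a median of 0.29. The 1 past 2-fold was Selp, the P-selectin gene, which was lower (295 in CON, 184 in DSS and 132 in DSSPAR, and -0.86 under median centring). None of 16 stellate cell and fibroblast markers was past 2-fold. Of 6 B and plasma cell markers above the floor 2 were at least 2-fold lower and 0 higher, with a median of -0.33. Ms4a1, Cd79b, Blk and Jchain had log2 ratios of -0.56, -0.10, 0.06 and 0.02. Ighm, the heavy chain of IgM, read 1327 in CON, 153 in DSS and 473 in DSSPAR, but its ratio of -1.49 was 0.16 without shared probe sets. Mzb1, a marker of plasma cells, read 402 in CON, 246 in DSS and 178 in DSSPAR and was -0.87 under median centring and -0.13 with the higher floor. Of 10 intestinal epithelium markers 5 lay above the floor, 1 at least 2-fold higher and 2 lower, with a median of -0.88. Car1, a carbonic anhydrase of colonocytes and red cells, read 420.5 in CON, 176 in DSS and 118 in DSSPAR, and its ratio of -1.83 was -0.20 with the higher floor. Fabp2, a fatty acid binding protein known from enterocytes, read 16643 in CON, 10784 in DSS and 5240.2 in DSSPAR and was lowest in DSSPAR, and Tff3, a trefoil peptide, read 1718 in CON, 9631 in DSS and 4387 in DSSPAR and was highest in DSS. The intestinal genes Vil1, Cdx1, Muc2, Krt20 and Clca1 lay under the floor in all 3 liver arrays. Of 6 adipocyte markers 4 lay above the floor, none past 2-fold, with a median of -0.56 and a summed signal of 92820.3 in CON, 45342 in DSS and 49603 in DSSPAR. Nearly all of that sum is Car3, a carbonic anhydrase that hepatocytes also make, at 90903 in CON, 41333 in DSS and 48417 in DSSPAR. Fabp4, a fatty acid binding protein of fat cells, read 1478 in CON, 3796 in DSS and 945 in DSSPAR and was lowest in DSSPAR. Of 11 exocrine pancreas markers 6 lay above the floor in CON or DSSPAR, 1 at least 2-fold lower and 0 higher, with a median of -0.29. The lower gene was Prss2, a pancreatic trypsinogen, at 201 in CON, 336 in DSS and 87.5 in DSSPAR. It was at least 2.08-fold lower, and -0.89 under median centring.

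**Figure D5:**
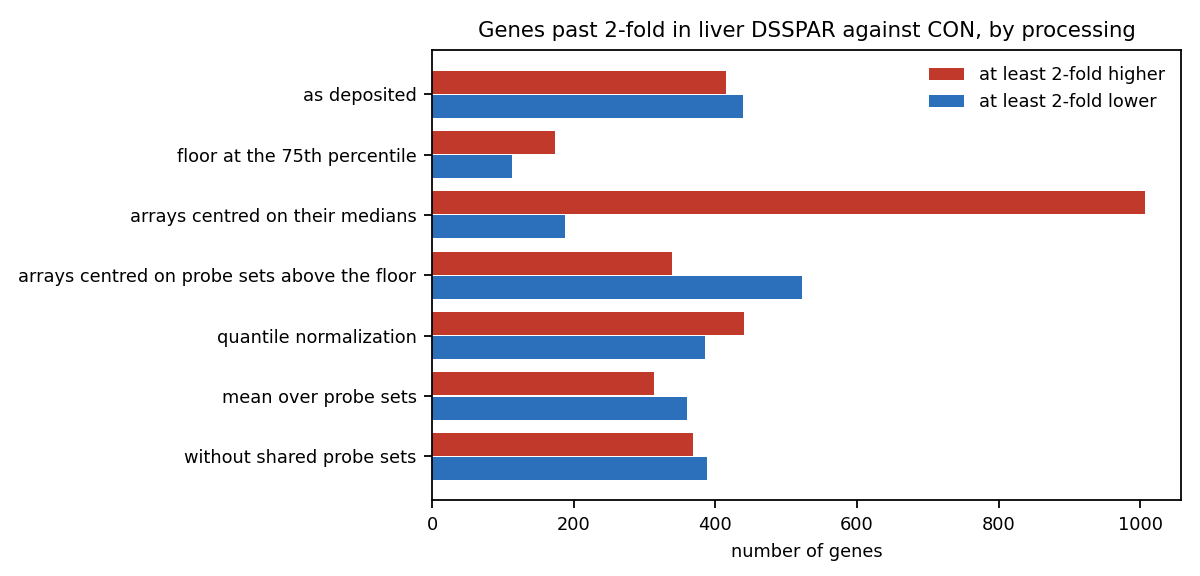
Number of liver genes at least 2-fold higher (red) and lower (blue) in DSSPAR than in CON (horizontal axis) with the values as deposited and under 6 other processing choices (vertical axis). The counts are 415 and 439 as deposited, 173 and 113 with the higher floor, and 1007 and 188 under median centring, where the split turns furthest to the higher side.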

How the data were processed

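Pooled RNA of 7 mice per group, 15 µg per labelling, was hybridised to 1 array per tissue and group, per the labels' protocols. The deposited intensities are linear and positive and were made with MAS5, per the submitters' processing notes. The MAS5 version, and the target its scaling used, were not given in the sources used here. The platform annotation named them: of 45101 probe sets, 34958 carried 1 gene symbol, 932 several and 9211 were not listed. The brightest probe set over the 3 liver arrays stood for a gene. Signals under the median of those arrays were raised to it, and log2 ratios were taken from the deposited scaling. With 1 array per group there is no test, and genes past 2-fold were counted.

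The members and the 47 gene lists (1102 genes, 967 on the array under 1 symbol) were chosen with earlier results of these data known. Named genes are the 15 highest and 15 lowest among genes at or above the 60th percentile of the brighter array with probe sets of 1 sign, and up to 10 members per list of largest ratio. Others are said to be chosen after their values were seen. The labels' growth protocol words 9 days of the polymer after DSSPAR and does not settle the 10 days for DSS. Promoters came from RefSeq (GRCm38.p6), where 6 motifs were searched on both strands of 250 bases. The code was run on simulated data with planted changes beyond 2-fold in bright genes. That run checks the arithmetic and says nothing of the calls in these data. Calculations used Python 3.11.15, NumPy 2.4.6 and pandas 2.3.3, and plots matplotlib 3.10.9.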

Additional observations from a re-analysis of the deposited data

Results flagged for a closer look

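In 6 named genes the DSSPAR arrays lay past 2-fold on opposite sides of CON in liver and in colon. With 1 array per group and tissue, the difference between the tissues was not tested. Slc10a2, the bile acid transporter of the ileum and of bile duct cells, had a log2 ratio of 1.91 in liver (signal 150.4 in CON and 565 in DSSPAR, and a ratio of 0.62, short of 2-fold, with a floor at the 75th percentile) and -3.07 in colon (210.3 and 1.15). Cxcl9, the T cell attractant, had -1.07 in liver (2036 and 967, and short of 2-fold under median centring, at -0.77, and as the mean over probe sets, at -0.80) and 2.88 in colon (23.1 and 184). Il6ra, the interleukin-6 binding chain, had 1.38 in liver (505 and 1316, and 0.87 as the mean over probe sets) and -1.08 in colon (52.96 and 20.59).

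Zdhhc12, the palmitoyltransferase, had -2.79 in liver (667 and 93.4, and -0.86 with the higher floor) and 1.37 in colon (33.8 and 87.4). Etnppl, which breaks down phosphoethanolamine, had -2.48 in liver (4323 and 773) and 1.05 in colon (23.6 and 51.9). Ighm, the heavy chain of IgM, had -1.49 in liver (1327 and 473) and 1.09 in colon (63.9 and 136), and its liver ratio was 0.16 without shared probe sets. Colon arrays were scaled apart from liver arrays, with a colon floor of 25.1, so signals are not compared between the tissues, and a colon value under 25.1 was raised to it before the ratio.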

How the results depend on the processing

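The counts of 415 genes higher and 439 lower moved by over 1.5 times under 4 choices. They became 173 and 113 with a floor at the 75th percentile, where fewer genes are tested, 1590 and 2991 with no floor, 1007 and 188 with median centring, and 85 and 54 at 3-fold. Higher genes made up 48.6% of the calls as deposited, 60.5% with the higher floor, 34.7% with no floor, 84.3% with median centring and 61.2% at 3-fold. Bright centring (339 and 522), quantile normalization (441 and 386), the mean over probe sets (314 and 360) and leaving out shared probe sets (368 and 388) stayed within 1.5 times. Of 144 named genes past 2-fold, 18 fell short under median centring, 11 under bright centring, 8 after quantile normalization, 23 as the mean over probe sets and 0 without a floor. With the higher floor 21 of 123 still measured did so, and 10 of 126 without shared probe sets. The sign turned for Csf1 as the mean over probe sets (-0.13), and without shared probe sets for Irak1 (-0.0074), Mcm3 (-0.12), Cdc20 (-0.086) and Ighm (0.16). The cause was not tested.

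No paired analysis was possible because each group had 1 array, numbered replicate 1 in every group. For the same reason no replicate could be left out. The number of arrays, and signal near the floor, limit the precision: the robust SD between probe sets of 1 gene was 0.67 among the dimmer pairs, and differences between mice, pools and arrays are not in it.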

Other observations

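Some genes were past 2-fold in DSSPAR against both other liver arrays. They were picked after their values were seen and are given as values. Leap2, a liver-expressed peptide that blocks the ghrelin receptor, read 18040.0 in CON, 28992 in DSS and 6197 in DSSPAR. The mitochondrial genes Atp5md, a subunit of ATP synthase, and Timm8b, a chaperone of the inner membrane import route, read 57068 in CON, 68477 in DSS and 23164 in DSSPAR and 7037 in CON, 12099.8 in DSS and 3351 in DSSPAR. Mrpl41, a mitochondrial ribosomal protein gene, read 11490.1 in CON, 15361 in DSS and 5225 in DSSPAR, and Pfdn4, a subunit of the prefoldin chaperone, 1755 in CON, 3660.2 in DSS and 817 in DSSPAR. In these 5 genes DSSPAR was the low array and DSS the high one. Aspa, aspartoacylase, read 2746 in CON, 2589 in DSS and 1015 in DSSPAR.

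On the higher side, Abcd2, a peroxisomal transporter of very long chain fatty acids, had a signal of 223 in CON, 295 in DSS and 638 in DSSPAR, with 4 probe sets above the floor on the same side. Slc46a3, a lysosomal solute carrier, read 928 in CON, 962 in DSS and 2243 in DSSPAR. Both lay past 2-fold above CON and above DSS.

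Genes with large ratios outside the naming rule include Fgl1, a hepatocyte protein of the fibrinogen family, at 7056 in CON, 65179.6 in DSS and 47465 in DSSPAR (6.73-fold higher in DSSPAR than in CON), and Tmem176a, a membrane protein gene, at 2635 in CON, 8811 in DSS and 13496 in DSSPAR (5.12-fold higher). Sucnr1, the succinate receptor, read 8474 in CON, 2442 in DSS and 2474 in DSSPAR and was 3.43-fold lower.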
